A study of Mus musculus with 15 samples.

Results

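In all, 10 genes of the MHC class I pathway were examined in chromatin maps of mouse bone marrow-derived macrophages (BMDMs): Psmb8, Psmb9, Psmb10, Tap1, Tap2, Tapbp, B2m, H2-K1, H2-D1 and Nlrc5. They are 10 of the 21938 protein-coding genes of the GENCODE M21 annotation (mm10). The genes were chosen by name and pathway, but with the coverage of these same region lists already known, so all values are given as a description with no test. The maps came from CUT&RUN, in which a nuclease is tethered to an antibody bound on chromatin and the DNA it cuts free is sequenced. The targets were mapped: HA-tagged histone variant H3.3 (H3.3-HA), acetylation of histone H3 at lysine 27 (H3K27ac), found at active promoters and enhancers, and trimethylation at lysine 36 (H3K36me3), found along transcribed gene bodies. The comparison asked where the 2 histone marks were called in wild-type cells and in cells meant to lack H3.3.

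WT cells carried H3f3a fl/fl and H3f3b fl/fl, the floxed genes for H3.3, without Cre. The cKO cells carried the same floxed alleles with LysM cre/cre, a recombinase driven from the myeloid gene Lyz2, which acts in macrophages and granulocytes. The H3.3-HA cells came from separate knock-in mice with an HA-tagged H3f3b gene, so they show where H3.3 from that gene lay in cells that still had it. Mice were on a C57BL/6 background, male and female, and 8 to 10 weeks old, and marrow was cultured for 6 to 8 days in medium conditioned by L929 cells. The study states that deletion of H3f3b varied between cKO samples from complete to partial. There were 10 libraries, namely 2 of H3.3-HA and, for each mark, 2 from WT and 2 from cKO cells. The labels call them biological replicates.

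Class I molecules show peptides from inside the cell to cytotoxic T cells. The immunoproteasome cuts proteins into peptides, the TAP transporter carries the peptides into the endoplasmic reticulum, tapasin helps load them, and a heavy chain paired with beta-2 microglobulin presents them at the surface. Nlrc5 is a nuclear regulator that activates class I genes, and interferon is the classic inducer of much of the pathway in macrophages. Psmb9 and Tap1 are transcribed away from each other from a shared promoter.

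Stretches of DNA just before gene starts are shown for the shared Psmb9-Tap1 promoter and for the genes with a motif match. H3K27ac differences described later lie over or beside them, except at B2m, whose start was covered in every H3K27ac library. They are RefSeq sequence (GRCm38.p6, the assembly of mm10), and the RefSeq promoter table held 8 of the 10 genes, without Tap2 and Nlrc5. Capitals mark motifs found by a search of both strands. The first line is the interval between the RefSeq starts of Psmb9 and Tap1, chr17:34187331-34187555, read on the plus strand toward Tap1. The others are the 180 bases before the start, read with the gene: Psmb8 at chr17:34198015-34198194 on the plus strand, H2-K1 at chr17:34000348-34000527 on the minus strand, H2-D1 at chr17:35262914-35263093 on the plus strand and B2m at chr2:122147507-122147686 on the plus strand.
Psmb9-Tap1: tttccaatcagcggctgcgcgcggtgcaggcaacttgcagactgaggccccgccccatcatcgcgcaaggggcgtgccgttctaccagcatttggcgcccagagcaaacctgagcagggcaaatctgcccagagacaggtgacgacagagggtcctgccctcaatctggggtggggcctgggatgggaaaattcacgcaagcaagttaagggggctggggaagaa
Psmb8: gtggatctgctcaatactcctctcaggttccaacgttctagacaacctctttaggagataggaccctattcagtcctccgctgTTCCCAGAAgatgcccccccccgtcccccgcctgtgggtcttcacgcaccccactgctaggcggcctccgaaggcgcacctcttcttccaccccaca
H2-K1: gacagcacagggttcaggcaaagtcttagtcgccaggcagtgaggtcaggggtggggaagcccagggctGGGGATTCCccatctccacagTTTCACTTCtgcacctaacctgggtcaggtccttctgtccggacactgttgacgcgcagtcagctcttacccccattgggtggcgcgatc
H2-D1: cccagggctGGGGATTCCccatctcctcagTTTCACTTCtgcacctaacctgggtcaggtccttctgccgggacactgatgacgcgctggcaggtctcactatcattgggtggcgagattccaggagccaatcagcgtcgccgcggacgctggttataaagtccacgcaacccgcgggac
B2m: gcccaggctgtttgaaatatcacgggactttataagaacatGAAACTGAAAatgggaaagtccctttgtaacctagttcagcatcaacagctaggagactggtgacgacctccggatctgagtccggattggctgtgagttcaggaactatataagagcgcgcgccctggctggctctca

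In all, 4 motifs were searched in the full promoter window of 300 bases. The NF-kappaB motif GGGGATTCC, found in 0.250% of 32851 RefSeq promoters, began 111 bases before the start of H2-K1 and 171 bases before that of H2-D1. The interferon consensus core GAANNGAAA, found in 7.52% of promoters, lay 90 bases before H2-K1 and 150 bases before H2-D1, in the reverse orientation. These 2 heavy-chain genes thus carried both motifs in the same order, next to each other. Their printed stretches are nearly the same around the motifs, so the 2 genes are not separate cases. The NF-kappaB motif was searched as a fixed string and the other motifs with open positions (N). Its share is therefore not comparable with theirs. A longer interferon core, GAAANNGAAA, found in 3.44% of promoters and neither containing nor contained in the shorter one, lay 139 bases before B2m. The STAT motif TTCNNNGAA, found in 8.30% of promoters, lay 97 bases before Psmb8. None of the 4 letter strings was in the windows of Psmb9, Tap1, Psmb10 or Tapbp, which says only that these letters are not there.

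The lists gave, for each library, the start and end of every called region and no height. Coverage was therefore measured as the percentage of a gene's window, the gene body plus 5 kb upstream, that lay inside called regions. A window was counted as higher in cKO when both cKO libraries covered more of it than both WT libraries, and lower in the opposite case. Over their whole length the lists covered 74.8 and 89.6 Mb in WT H3K27ac against 46.2 and 62.0 Mb in cKO. For H3K36me3 they covered 164 and 170 Mb in WT, and 90.7 and 163 Mb in cKO, the smaller value being that of replicate 1, of whose 23782914 tags 19.3% lay in regions against 46.5% in replicate 2. Library totals ran from 5365319 to 29988098 tags. Of the H3K27ac tags, 24.1% and 21.5% lay in regions in WT replicates 1 and 2, against 11.8% and 17.8% in cKO. The control directories named for peak calling also differed by genotype, so a genotype difference and a control difference cannot be told apart. In these bulk cultures, a larger share of cells carrying a mark and more mark per cell cannot be told apart either.

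The label of the cells was checked on marker genes. All 5 macrophage markers (Csf1r, Adgre1, Itgam, Cd68 and Mertk) had H3K36me3 regions in all 4 libraries. Of 11 markers of T cells, B cells, neutrophils and dendritic cells, none had H3K36me3 regions in both libraries of either genotype. In H3K27ac the 5 macrophage markers differed in direction, with Adgre1, Itgam and Mertk lower in both cKO libraries than in both WT libraries, Cd68 higher and Csf1r overlapping. Coverage was 10.4% and 5.05% in WT and 1.95% and 1.05% in cKO at Adgre1. It was 9.84% and 5.95% in WT and 0% and 1.04% in cKO at Mertk. Itgam had 26.6% and 18.9% in WT and 11.7% and 18.7% in cKO, and Cd68 48.7% and 44.8% in WT and 58.7% and 75.2% in cKO. H3K27ac regions lay at Ms4a1 and Elane in all 4 libraries and at Cd3d in both cKO libraries alone, and the part of these marker differences in the values of the class I genes was not tested. The lists did not show the deletion itself. H3K36me3 regions covered 72.3% and 77.8% of H3f3a in WT and 67.9% and 73.0% in cKO, and 10.66% and 14.2% of H3f3b in WT and 39.6% and 33.6% in cKO. H3K27ac regions covered 16.4% and 16.5% of H3f3a in WT and 26.9% and 20.8% in cKO, and 23.9% and 24.1% of H3f3b in WT and 55.4% and 73.6% in cKO. Both marks thus covered more of H3f3b in the libraries labelled cKO, and cKO is used throughout as the submitters' label.

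H3K27ac covered more of the window in both cKO libraries than in both WT libraries at 8 of the 10 genes, and at none was it lower. The other two were B2m and Psmb10. Among all 12767 genes with an H3K27ac region in the window, 17.4% were higher and 38.2% lower by the same rule. The median difference over the 10 genes was 16.95 percentage points toward cKO, with a range from -9.89 to 37.5, against -1.02 over all genes with a region. Psmb9, Tap1, Psmb8 and Tap2 lie side by side and their windows overlap, so the 10 windows formed 7 separate stretches of the genome, 5 of them higher in cKO and none lower. Together these stretches measured 187.9 kb, of which H3K27ac covered 24.8 and 20.0 kb in the WT libraries and 35.2 and 50.6 kb in the cKO libraries. The genes thus went the other way from the lists as a whole, which covered less in cKO.

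**Figure D1:**
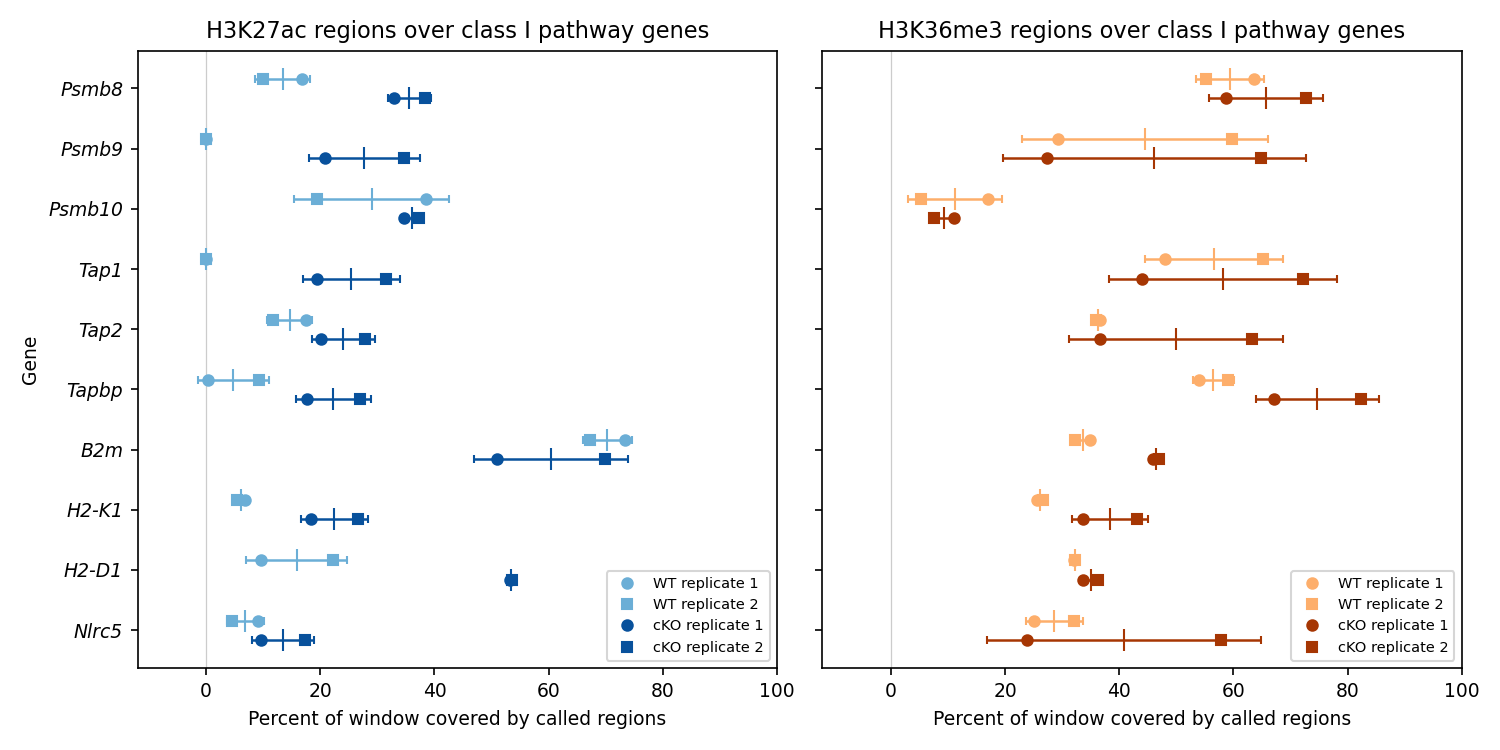
Percentage of each gene's window (body plus 5 kb upstream) inside called regions for H3K27ac (left) and H3K36me3 (right). Points are single libraries, vertical ticks are means and horizontal bars are SD of 2 libraries. On the left, the dark cKO points lie to the right of both pale WT points for 8 genes, with B2m and Psmb10 overlapping. On the right, 5 genes separate and the cKO replicates lie far apart at several genes.

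The immunoproteasome genes encode the inducible catalytic subunits. At Psmb9 (chr17:34181987-34187764, minus strand), H3K27ac regions covered 0% of the window in both WT libraries and 20.8% and 34.6% in the cKO libraries. At Psmb8 (chr17:34197721-34201454, plus strand), coverage was 16.8% and 10.0% in WT and 32.9% and 38.3% in cKO. The genotypes did not overlap at either gene, and the mean differences were 27.7 and 22.2 points. At Psmb10 (chr8:105935735-105938444, minus strand), coverage was 38.6% and 19.4% in WT and 34.6% and 37.3% in cKO, so that both cKO values lay between the WT values. Psmb10 stands on another chromosome and was the subunit whose start carried H3K27ac in every library.

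The TAP subunits and tapasin showed the same direction. At Tap1 (chr17:34187553-34197225, plus strand), H3K27ac covered 0% in both WT libraries and 19.4% and 31.49% in cKO. At Tap2 (chr17:34203527-34216321, plus strand), it covered 17.4% and 11.8% in WT and 20.1% and 27.9% in cKO. The gap at Tap2 was small, 2.67 points between the nearest libraries of the 2 genotypes. At Tapbp (chr17:33915899-33929292, plus strand), which encodes tapasin, coverage was 0.353% and 9.18% in WT and 17.7% and 26.9% in cKO. The window of Tapbp also touches Daxx and Zbtb22, so not all of its coverage belongs to Tapbp. In the same way, the Psmb10 window touches Lcat and the B2m window touches Patl2.

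The presenting molecules differed from one another. H2-D1 (chr17:35262730-35267499, plus strand), a classical heavy chain, had the largest difference of the 10, with 9.60% and 22.2% in WT and 53.2% and 53.5% in cKO. H2-K1 (chr17:33996017-34000347, minus strand), the other heavy chain, had 6.75% and 5.37% in WT and 18.3% and 26.6% in cKO. Both heavy chains separated by genotype, with means of 15.9% ± 8.88 and 53.4% ± 0.224 at H2-D1 and of 6.06% ± 0.978 and 22.4% ± 5.87 at H2-K1 (SD, n = 2 each). B2m (chr2:122147686-122153083, plus strand), their shared light chain, was already covered over most of its window, at 73.4% and 67.2% in WT and 50.9% and 69.9% in cKO. Within the B2m gene body alone the cKO values were the lower ones, 48.5% and 86.4% against 100% and 88.8%. Read placement limits the heavy chains: 45.2% of the 25-base words of H2-K1 and 44.9% of those of H2-D1 occur elsewhere in the genome, where 25 is the read length, and 20.8% of those of H2-K1 occur in H2-D1. For the other genes the share was between 0.0372% and 15.6%.

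Nlrc5 (chr8:94434356-94527272, plus strand), the regulator, is by far the longest of the genes. H3K27ac covered 9.12% and 4.60% of its window in WT and 9.56% and 17.3% in cKO. The genotypes separated by 0.439 points only, and in the gene body alone they overlapped. What differed was the position of the region at its start, described next.

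H3K27ac lay over more of the gene starts in cKO. The annotated start base was inside a region in both WT libraries at 2 of the 10 genes (Psmb10 and B2m) and in both cKO libraries at 9, with Tap2 covered in replicate 2 alone. It was covered in both cKO libraries and in neither WT library at 6 genes: Psmb8, Psmb9, Tap1, Tapbp, H2-K1 and Nlrc5. The starts of Psmb9 and Tap1, annotated and RefSeq alike, lay in the same cKO regions and are not separate cases. The pattern is read against all genes, where 31.8% of the 8165 gene starts covered in any H3K27ac library had it, and 5252 starts lay in both cKO lists against 2507 in both WT lists. The choice of start mattered for single genes. At the RefSeq starts, 4 of the 8 genes in the table had the pattern (Psmb9, Tap1, H2-D1 and 1 of the 2 starts of H2-K1) against 29.3% of all RefSeq starts covered in any library. The RefSeq start of Psmb8 was covered in all 4 libraries and that of Tapbp in 1 WT and both cKO libraries. The count of starts was added after the values had been seen.

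At the shared Psmb9-Tap1 promoter the mark was called in cKO alone. No H3K27ac region was called in either WT library anywhere in the windows of the 2 genes. In cKO replicate 1 a region of 2247 bp ran from 34186490 to 34188736, and in replicate 2 a region of 3731 bp ran from 34186441 to 34190171. Both contain the whole interval of 225 bases printed for Psmb9-Tap1. Across the block, regions at the start of Psmb8 also reached further upstream in cKO, beginning 1100 and 883 bp before the annotated start, whereas those of the WT libraries began 308 and 229 bp after it. All 4 contain the STAT motif in the printed Psmb8 stretch, which lies nearer to the RefSeq start.

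**Figure D2:**
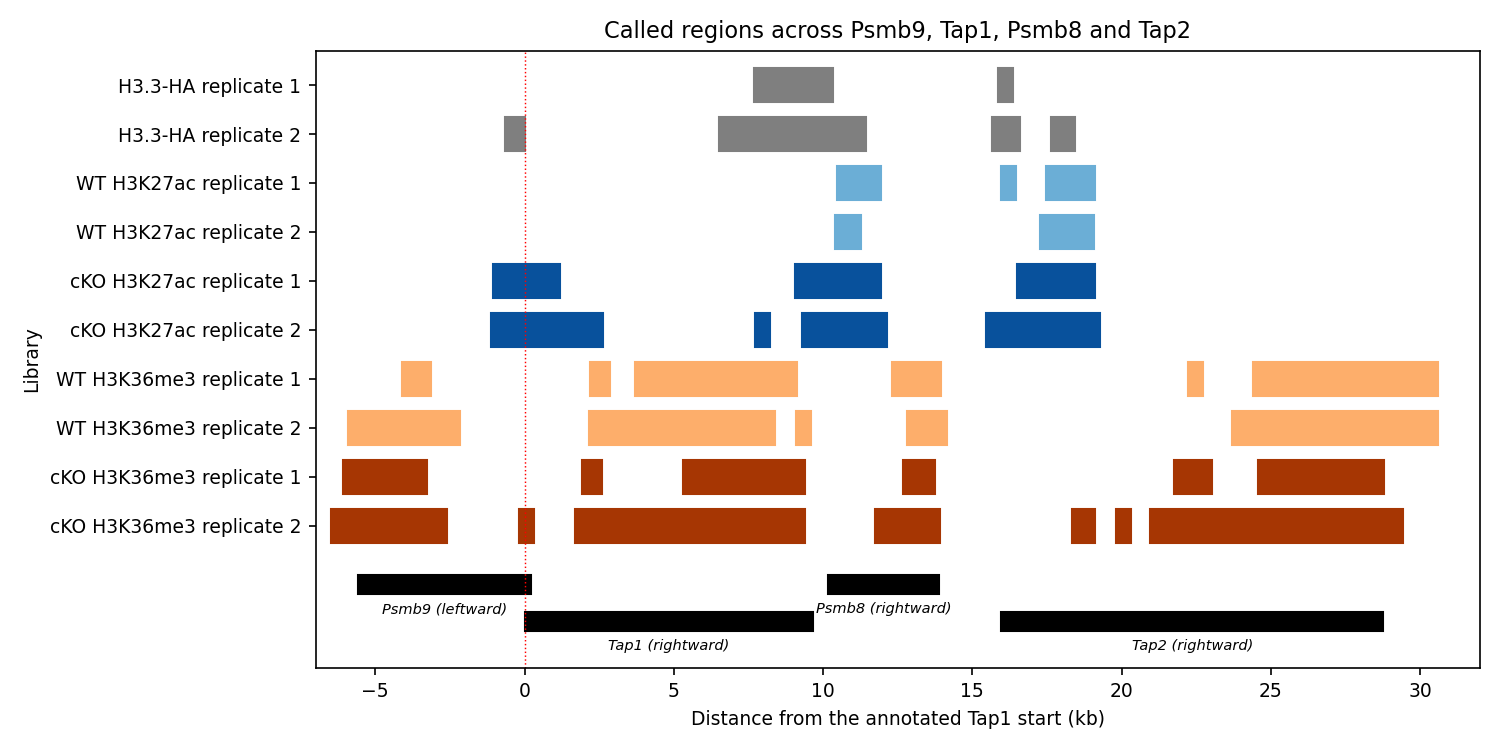
Called regions of the 10 libraries across Psmb9, Tap1, Psmb8 and Tap2, by distance in kb from the annotated Tap1 start (dotted line), with gene bodies as black bars and the direction of transcription beside each name. Dark blue cKO H3K27ac blocks stand over the Tap1 start, of 2247 and 3731 bp, where neither WT row has a block, and orange H3K36me3 blocks lie along the gene bodies in all 4 rows.

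The other starts showed longer regions in cKO more often than new ones. At H2-D1 the region at the start measured 938 and 879 bp in WT and 2749 and 2852 bp in cKO, and the added length lay downstream, reaching 2094 and 2214 bp past the start. At H2-K1 the WT regions of 630 and 501 bp ended 157 and 102 bp before the start. In cKO they ran to 9 bp past the start in replicate 1 and to 1873 bp past it in replicate 2. The motifs printed for the heavy chains lay inside these regions in both cKO libraries. In WT, the NF-kappaB motif of H2-K1 lay inside the region of replicate 2 alone, and its interferon core and both motifs of H2-D1 lay in none. Some of these calls turn on region edges. The NF-kappaB motif of H2-D1 began at 35262923, and the WT replicate 1 region ended at 35262915. The interferon core of H2-K1 ended at 34000437, and the WT replicate 2 region began at 34000449. Bases outside a called region may still hold some of the mark. At Nlrc5 the WT regions at the start measured 1143 and 910 bp and began 37 and 47 bp downstream of it. The cKO regions measured 5670 and 7643 bp and began 1825 and 1727 bp upstream. At Tapbp, cKO regions of 1247 and 1355 bp covered the annotated start, where neither WT library had one. At B2m all 4 libraries had a region over the start and its printed interferon core, from 5088 to 9024 bp long.

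**Figure D3:**
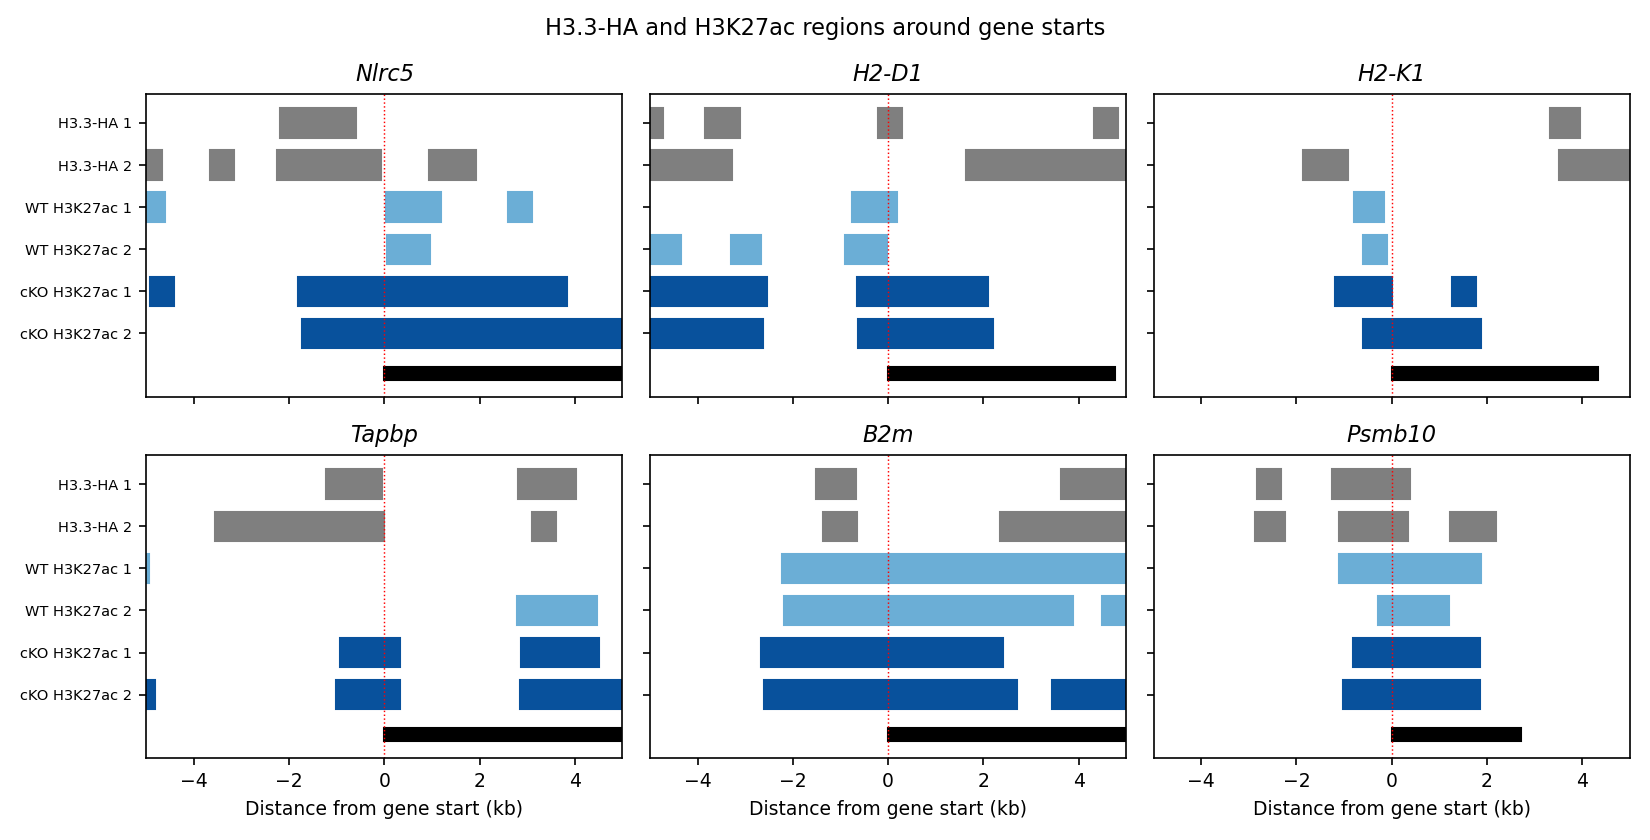
H3.3-HA (grey) and H3K27ac regions (WT pale blue, cKO dark blue) within 5 kb of the annotated start of 6 genes, by distance in kb with transcription to the right; numbers beside the rows are replicates and black bars are gene bodies. At Nlrc5 and H2-D1 the cKO blocks are several times as long as the WT blocks, up to 7643 and 2852 bp, and at B2m and Psmb10 every H3K27ac row covers the start.

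Counted as regions and not as length, H3K27ac differed at fewer genes. A merged region found in the 2 cKO lists and absent from the WT lists was present at 3 of the 10 genes, against 17.3% of all genes with a region. These were Psmb9 and Tap1, through the same region, and Tapbp, through chr17:33914879-33916233, which also touches Daxx and Zbtb22. A region called in both WT and neither cKO library was present at none, against 37.3%. At H2-K1 the window held a single merged H3K27ac region, present in all 4 libraries, so none counted as found in cKO alone. Its difference was one of length and of position. Inside the gene body, coverage was 0% in both WT libraries and 11.8% and 43.3% in cKO. In cKO replicate 1 most of this was a separate region of 501 bp, from 33998581 to 33999081. H2-D1 had a merged region over the start that all 4 libraries overlapped, although the WT replicate 2 region ended 27 bp before the start. An upstream region, chr17:35257102-35260178, was called in both cKO libraries and WT replicate 2 but not in WT replicate 1. Psmb8 and Nlrc5 likewise had a merged region over the start that all 4 libraries overlapped, beside others called in some libraries only. At both genes the WT regions within it began past the annotated start. With 1-kb bins in place of merged regions, the count of genes with a bin found in cKO alone was 7. No share over all genes was computed for bins, so this count cannot be set beside the 17.3% for merged regions.

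H3K36me3 covered more of the window in both cKO libraries at 5 of the 10 genes (Tap2, Tapbp, B2m, H2-K1 and H2-D1) and less at none, against 7.85% higher and 37.7% lower among 11975 genes with a region. The median difference was 9.25 points toward cKO, with a range from -1.84 to 18.2, against -4.99 over all genes with a region. By stretch, 4 of 7 were higher. The cKO replicates disagreed widely in this mark: across the 187.9 kb, replicate 1 covered 61.3 kb and replicate 2 covered 107 kb, with 58.6 and 68.2 kb in WT. Without cKO replicate 1 the count of higher genes was 9. Without cKO replicate 2 it was 5 and 3 genes were lower. No share over all genes was computed with a library left out.

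Among the presenting genes the mark lay past the start, in merged regions that began 522 bp into B2m, 935 bp into H2-K1 and 1221 bp into H2-D1. The exception was a region of 628 bp upstream of H2-K1, called in cKO replicate 2 alone. B2m had 34.9% and 32.3% in WT and 45.9% and 46.9% in cKO, or 67.3% and 62.1% against 88.5% and 90.3% of the body alone. H2-K1 had 25.6% and 26.6% in WT and 33.6% and 43.1% in cKO. These 2 genes separated clearly, by 10.97 and 7.06 points between the nearest libraries. H2-D1 had 32.1% and 32.2% in WT and 33.7% and 36.3% in cKO, a mean difference of 2.86 points. At B2m the marks thus differed, since H3K36me3 covered more in both cKO libraries and H3K27ac did not.

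For peptide loading, Tapbp had 54.0% and 59.0% H3K36me3 coverage in WT and 67.1% and 82.3% in cKO. Tap2 had 36.6% and 35.96% in WT and 36.7% and 63.2% in cKO. Tap2 counts as higher, but cKO replicate 1 lay only 0.0843 points above the nearest WT library. Tap1 had 48.0% and 65.2% in WT and 44.0% and 72.2% in cKO, and overlapped. Tapbp also held one of the 2 regions called in cKO alone, chr17:33917026-33919343, of 2318 bp within the first part of its annotated body. That region also touches Zbtb22 and ends before the RefSeq start of Tapbp at 33919478.

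Immunoproteasome genes overlapped between genotypes in H3K36me3. Psmb8 had 63.5% and 55.2% in WT and 58.6% and 72.8% in cKO. Its window and that of Psmb9 also hold part of the Tap1 body. Within the Psmb8 body alone, coverage was 42.9% and 29.1% in WT and 28.3% and 57.4% in cKO. Psmb9 had 29.2% and 59.8% in WT and 27.4% and 64.9% in cKO. Psmb10 had 17.0% and 5.33% in WT and 11.1% and 7.57% in cKO. Within the Psmb10 body alone, coverage was 27.3% and 0.295% in WT and 31.4% and 21.5% in cKO. No H3K27ac region was called at the shared Psmb9-Tap1 promoter in WT. H3K36me3 regions were nonetheless called over the bodies of Psmb9 and Tap1 in both WT libraries.

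Nlrc5 had 25.1% and 32.1% H3K36me3 coverage in WT and 23.8% and 57.8% in cKO. Replicate 1 of cKO thus lay below both WT libraries and replicate 2 far above. Nlrc5 carried the other region called in cKO alone, chr8:94430469-94431095, of 627 bp upstream of its start, and the one region called in WT alone, chr8:94525104-94526629, of 1526 bp near its 3′ end. In all, 2 of 10 genes had an H3K36me3 region in cKO alone, against 8.47% of genes with a region, and 1 had a region in WT alone, against 23.6%.

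**Figure D4:**
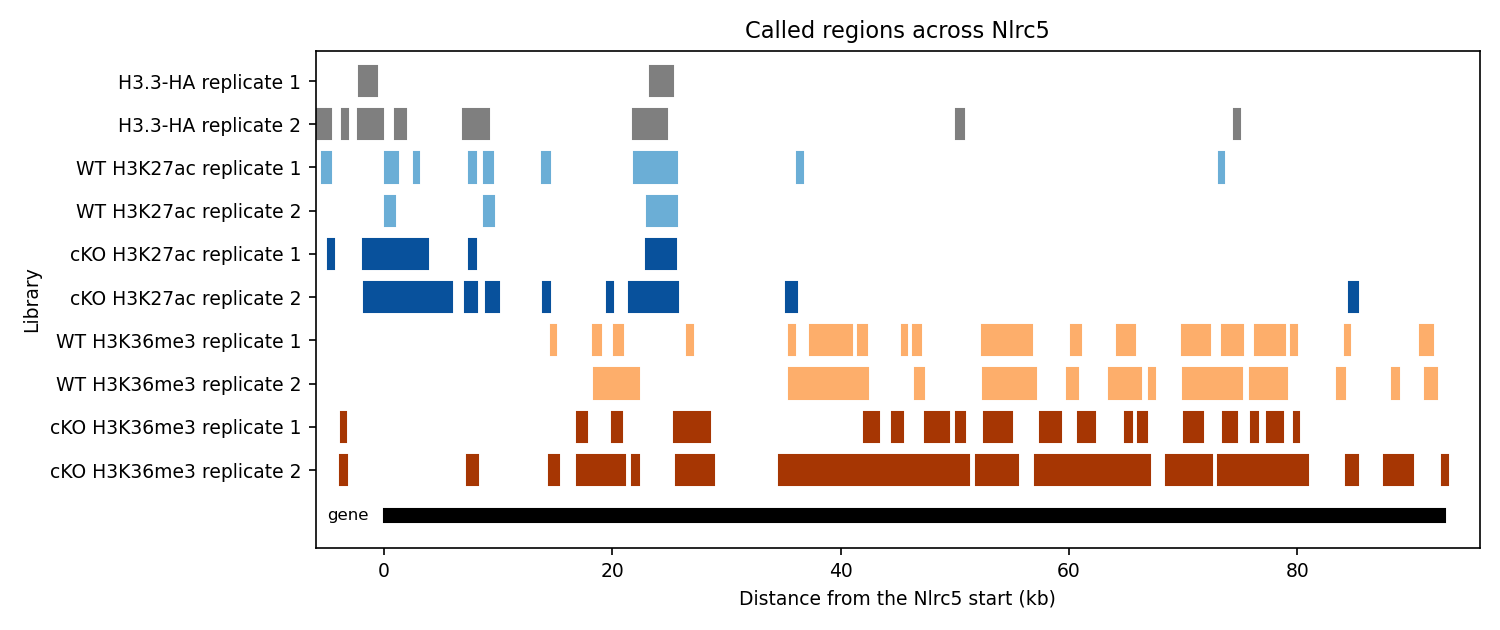
Called regions of the 10 libraries along Nlrc5, by distance in kb from its annotated start, with the gene body as a black bar. Blue H3K27ac blocks stand at the start and again at 21.5 to 25.7 kb, and orange H3K36me3 blocks fill more of the body in cKO replicate 2, where coverage of the window was 57.8%, than in the other 3 rows, at 23.8% to 32.1%.

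H3.3-HA was called at nearly all of these genes in cells that had the tagged H3.3. A region lay in the window in both libraries for 9 of the 10 genes, against 44.2% of all 21938 genes, and mean coverage had a median of 24.6% against 1.21%. Unlike the shares given for the marks, these are over all genes, including those with no called region in the window. The part of transcription in this contrast was not tested. At Tap1 the only region of replicate 1 was the one also counted at Psmb8. Coverage was 30.5% and 56.4% at Psmb8, the highest mean. Much of this lay over the 3′ end of Tap1, within the upstream 5 kb of the Psmb8 window. Of the 2663 bp at Psmb8 in replicate 1, 1988 bp were those counted at Tap1. Past the Psmb8 start lay 180 bp in replicate 1 and 1274 bp in replicate 2. Coverage was 20.1% and 49.8% at H2-D1, 27.9% and 39.5% at Psmb10 and 25.2% and 36.2% at B2m. These are genes with and without an H3K27ac difference.

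Tapbp had 17.4% and 41.1% H3.3-HA coverage, and Tap1 had 13.5% and 26.2%. H2-K1 had 6.74% and 19.04%, Tap2 2.82% and 12.4%, and Nlrc5 3.63% and 10.6%. Psmb9 was the exception, with 0% and 6.41%. Replicate 2 was the higher library at every gene, and it covered 38.8 kb of the stretches against 17.3 kb in replicate 1.

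H3.3-HA overlapped the H3K27ac region called in cKO alone at the annotated Tapbp start more than that at Psmb9-Tap1. At the Psmb9-Tap1 region of 3731 bp, H3.3-HA covered 0 bp in replicate 1 and 691 bp in replicate 2. At the Tapbp region of 1355 bp it covered 977 and 1011 bp. The Tapbp region also touches Daxx and Zbtb22 and lies upstream of the RefSeq start of Tapbp at 33919478, so the gene it belongs to is not settled. In the block, the main H3.3-HA region ran over the 3′ end of Tap1 into Psmb8. Over all stretches, 39.6% and 32.6% of the H3.3-HA length lay in H3K27ac regions of WT replicate 1, for H3.3-HA replicates 1 and 2, and 37.7% and 22.8% in those of WT replicate 2. In cKO, 59.6% and 41.4% lay in the regions of replicate 1, while those of replicate 2 held 74.4% and 53.8%. The tagged cells were neither WT nor cKO cells of the other lists, and the 4 H3K27ac lists themselves covered 13.2% and 10.65% of the stretches in WT and 18.7% and 26.9% in cKO.

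A further 20 genes of the pathway were taken as a list. For H3K27ac, 6 were higher in cKO and 5 lower, 2 had a region in cKO alone and 4 a region in WT alone, with a median difference of 1.68 points. Among all genes with a region these shares were 17.4%, 38.2%, 17.3% and 37.3%, in the same order. For H3K36me3, 6 were higher and 2 lower, 2 had a region in cKO alone and 1 in WT alone, with a median of 0.192 points, against 7.85%, 37.7%, 8.47% and 23.6% of all genes with a region. The higher genes in H3K27ac were Psme2, Tapbpl, H2-Q4, H2-T22, H2-T23 and Rfxank, and the lower ones Psmb7, Pomp, Erap1, Canx and Pdia3. Psme2, a subunit of the proteasome activator PA28, had 18.4% and 9.26% in WT and 43.9% and 50.3% in cKO. Canx, the chaperone calnexin, had 53.4% and 56.4% in WT and 22.5% and 26.6% in cKO.

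Single roles in this list held genes on both sides, such as Psme2 and Pomp for the proteasome, or Tapbpl and Canx for folding and loading. Of the constitutive catalytic subunits that the immunoproteasome subunits replace, Psmb7 was lower, at 13.9% and 9.94% in WT and 4.16% and 9.34% in cKO, and Psmb5 and Psmb6 overlapped. The non-classical class I gene H2-T23 had 12.3% and 8.80% in WT and 15.9% and 32.98% in cKO. H2-T22 had 5.91% and 10.99% in WT and 22.2% and 21.9% in cKO. The general folding chaperones Canx and Pdia3 were lower and Calr overlapped. H2-Q and H2-T genes are close copies of the classical heavy chains, so reads placed there carry the same uncertainty.

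In all, 3 genes had coverage over the 10 libraries most like that of Psmb9, among genes whose windows do not touch those of the 10 genes. By Euclidean distance in percentage points these were Mus81 (23.4), Banf1 (28.3) and Arhgap4 (28.6). Mus81 and Banf1 also had 0% H3K27ac coverage in both WT libraries, with 17.4% and 25.6% in cKO at Mus81 and 9.97% and 28.1% at Banf1.

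**Figure D5:**
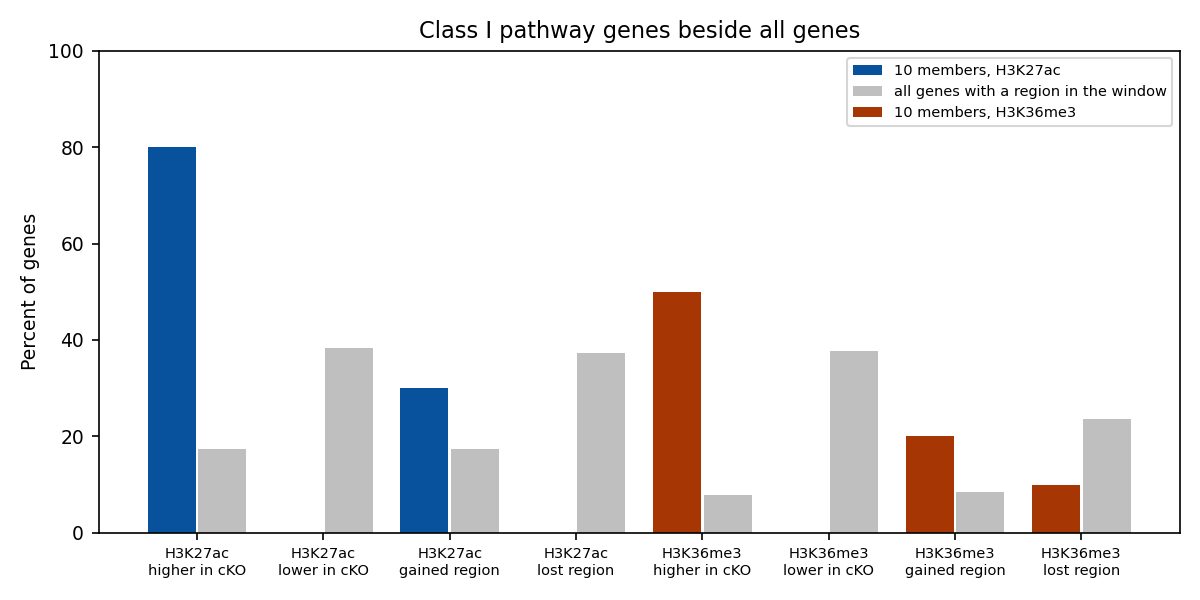
Percentage of genes in each class for the 10 class I genes (blue for H3K27ac, brown for H3K36me3) and for all genes with a region of that mark in the window (grey). For H3K27ac, 8 of 10 stand against 17.4% for higher in cKO and 0 of 10 against 38.2% for lower. The bars describe genes that were chosen with these values known.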

How the data were processed

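CUT&RUN region lists of 10 libraries of mouse BMDMs were used, 2 per group. The 5 IgG samples were not used as libraries. The authors trimmed reads, aligned pairs of 25-base reads to mm10 with Bowtie2 and called regions with HOMER in its histone mode, per library and without pooling (per the file headers: peak size of 500 bp, at least 1000 bp between peaks, 4-fold over IgG). The deposited columns hold region starts and ends in bp, with a constant score, so signal was not compared, and a region absent from a list may still hold some of the mark. Groups and replicate numbers came from the labels.

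Gene windows came from GENCODE M21 on chromosomes 1 to 19, X and Y, and coordinates are 1-based. The 4 lists of a mark were merged at an overlap of 1 bp. Coverage, gained (both cKO, neither WT) and lost regions were computed in Python 3.11.15 and tested on simulated lists. The 10 genes, the list of 20 genes and the markers were chosen with earlier results of these data known. All 10 genes and all listed genes could be named, beside the 3 nearest to Psmb9. No test was run across genes, and a permutation of 2 against 2 libraries could not reach 0.05. The counts of starts and the shorter interferon core were chosen after the values or sequences had been seen.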

Additional observations from a re-analysis of the deposited data

How the results depend on the processing

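Over the alternatives, 76 recomputed counts stayed within 1.5 times the value as reported and 24 did not. No gene whose genotypes were separated changed sign. With 1 library left out this was fixed in advance, since every cKO value of such a gene lay above every WT value. Genes that overlapped changed sign under some settings. In H3K27ac this was Psmb10, to -5.17 points with 5 kb on both sides. In H3K36me3 Psmb10 went to 12.7 points with the gene body only. Psmb8, Psmb9, Tap1 and Nlrc5 went to between -17.1 and -0.727 points in H3K36me3 without cKO replicate 2. No paired analysis was possible because the results come from no test. The count of genes higher in cKO for H3K27ac, 8 as reported, ranged from 7 to 10. Except for RefSeq starts, shares over all genes were computed for the reported settings only.

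For H3K27ac, 1 gene was lower with the gene body only, 1 had a region in WT alone with 5 kb on both sides, and the genes with a region in cKO alone numbered 5 with regions of at least 1 kb, 5 with lists of equal length and 7 with 1-kb bins. Leaving out 1 library gave 0 to 2 lower genes (2 without WT replicate 2, 1 without cKO replicate 2), 0 to 1 with a region in WT alone (1 without either of these libraries) and 4 to 5 with a region in cKO alone (5 without cKO replicate 1). For H3K36me3, 8 genes were higher after division by the covered length of the list and 2 within 1 kb of the start. Genes with a region in cKO alone numbered 1 with the gene body only, 0 within 1 kb of the start, 1 with gaps up to 1 kb joined and 6 with 1-kb bins, and those with a region in WT alone 0, 0 and 2 in the last 3 settings. Leaving out 1 library gave 5 to 9 higher genes, 0 to 3 lower, 2 to 6 with a region in cKO alone and 1 to 2 in WT alone, with 9 higher and 6 in cKO alone without cKO replicate 1, 3 lower without cKO replicate 2, and 1 lower and 2 in WT alone without WT replicate 2. The low counts rise with fewer libraries by construction, and the other causes were not tested. Depth cannot be weighed per region, since the lists hold no counts.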

Other observations

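Within the windows of the 10 genes, the H3K27ac Jaccard index (shared covered length over the length covered by either library) was 0.578 for the WT pair and 0.645 for the cKO pair, and between 0.363 and 0.424 for pairs of different genotype. For H3K36me3 it was 0.684 for the WT pair, 0.563 for the cKO pair and 0.409 to 0.539 between genotypes. No test of these 6 pairs per mark was run.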
